A study of Homo sapiens with 3 samples.

Results

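Ribosome footprints, the mRNA pieces that translating ribosomes protect from nuclease, were counted on 46 genes of the proteasome among 19262 protein-coding genes in H1299, A549 and HBE cells. The genes are those with a coding RefSeq row in all 3 tables and a symbol of the form PSMA to PSMG followed by a number, with PSMB8 and PSMB9 left out. They comprise the 14 constitutive subunits of the core particle, 17 subunits of the regulatory particle, 3 alternative core subunits, 3 chaperones of the regulatory particle's base, 4 activators, 1 inhibitor and 4 chaperones of the core particle. H1299 and A549 are established lines of non-small-cell lung cancer, and HBE is a line of bronchial epithelial cells. All 3 were grown in complete DMEM under normal conditions, with no treatment, and each gave 1 library. A difference between lines is therefore a difference between single libraries, with no replicate check. The intervals given here are exact 95% intervals for counting error only, except those of the ratio of median densities. They hold no spread between libraries. The footprints were counted without molecular identifiers, so reads copied in PCR could not be told apart.

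The proteasome degrades proteins that carry ubiquitin chains. Its core particle is a barrel of stacked rings: the outer rings, built of alpha subunits, form the gate, and the inner rings, built of beta subunits, hold the proteolytic sites. The regulatory particle caps the barrel. Its base carries a ring of ATPases that unfolds substrates, and its lid removes the ubiquitin chains. Each constitutive subunit is present in equal copy number within its particle. Interferon gamma induces alternative catalytic subunits, which form the immunoproteasome, and the activator proteins PSME1 and PSME2, which cap the barrel in place of the regulatory particle. The mature particle is assembled with the help of dedicated chaperones that are absent from the finished product.

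PSMB10, PSME1 and PSME2, which are known to be induced by interferon, were the 3 genes called lower in both cancer lines than in HBE by the rule for calls described with the ratios, and their promoters are shown first. Promoters from RefSeq (GRCh38.p14), covering 250 bases before and 50 bases after the start, matched 40 of the 46 genes; PSMA7, PSMB1, PSMB6, PSMB7, PSMD4 and PSMG3 had no entry. The letters GAAA, any 2 bases and GAAA again, a form of the interferon-stimulated response element, were searched on both strands and occurred in 6 of these 40 promoters (15.0%), against 3.22% of 14179 promoters of coding genes. The 6 were those of PSMA4, PSMB4, PSMB10, PSME1, PSME2 and PSMG4, and none of the 16 regulatory particle promoters searched held it. The 6 matches are shown, with 10 bases on either side and the match in capitals, because PSMB10, PSME1, PSME2 and PSMG4 have the same 10 letters there. Each is written 5′ to 3′ in the direction of the motif, at the hg19 position where it had a single exact match on the chromosome.
PSMB10, chr16:67970755-67970784, minus strand: gggtaaaggcGAAAGCGAAAgcaggaagta
PSME1, chr14:24605398-24605427, minus strand: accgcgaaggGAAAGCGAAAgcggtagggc
PSME2, chr14:24615828-24615857, minus strand: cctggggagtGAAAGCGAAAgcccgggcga
PSMG4, chr6:3259138-3259167, plus strand: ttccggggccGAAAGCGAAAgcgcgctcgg
PSMA4, chr15:78832497-78832526, plus strand: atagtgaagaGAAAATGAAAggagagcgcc
PSMB4, chr1:151371971-151372000, plus strand: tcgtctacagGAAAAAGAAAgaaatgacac

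Relative to the transcription start, the first base of the match lay at -21 in PSMB10, -28 in PSME2, -33 in PSMG4, -68 in PSMB4 and -240 in PSMA4, all on the strand of the gene. In PSME1 it lay at 6, inside the transcribed part and on the strand opposite to the gene. PSMG4, which has the same letters close to its start, was called higher in H1299 than in HBE. The 250 bases before the start of PSME1 held no match, as its match lies after the start. Whether the match bears on the footprint levels was not tested. The 250 bases before the start of PSMB10 and of PSME2 are given to show the match in its context, again in capitals.
PSMB10, chr16:67970754-67971003, minus strand: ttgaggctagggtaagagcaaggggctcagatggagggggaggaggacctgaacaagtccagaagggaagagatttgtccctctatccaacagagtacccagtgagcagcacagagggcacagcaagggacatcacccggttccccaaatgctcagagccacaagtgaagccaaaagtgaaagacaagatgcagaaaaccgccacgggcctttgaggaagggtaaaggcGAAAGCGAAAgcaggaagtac
PSME2, chr14:24615820-24616069, minus strand: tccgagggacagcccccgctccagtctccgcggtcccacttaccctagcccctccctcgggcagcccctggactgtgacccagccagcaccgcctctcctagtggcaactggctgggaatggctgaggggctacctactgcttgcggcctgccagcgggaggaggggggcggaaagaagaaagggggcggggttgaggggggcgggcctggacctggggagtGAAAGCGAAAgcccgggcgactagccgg

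Other motifs were searched in the same windows. The letters TTCNNNGAA of the interferon gamma activated site occurred in 5 of 40 promoters (12.5%), against 7.03% of all. TGACNNNGC, the core of the antioxidant response element to which NFE2L1 and NFE2L2 bind with small MAF proteins, occurred in 12 of 40 promoters, against 14.3% of all, and in 4 of 16 regulatory particle promoters but 1 of 10 core particle promoters. CCAAT, the box bound by NF-Y, occurred in 18 of 40 (45.0%), against 36.3% of all. The search for these forms of the interferon elements was added after the footprint values had been seen. A match describes the letters in these windows and not binding.

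The depth was similar in the 3 libraries, with 35751992 mapped reads in H1299, 38268527 in A549 and 43580281 in HBE, of which 79.2% to 81.8% lay on coding transcripts. The 10 most read coding transcripts held 31.4% of the coding reads in H1299, 31.7% in A549 and 38.9% in HBE, the largest share of the 3. A transcript of TREML2 alone held 15.2% in H1299, 15.3% in A549 and 19.0% in HBE. These reads are part of the total of coding reads to which levels were scaled. Basal markers separated HBE from the cancer lines, and epithelial markers were mixed. KRT17, a basal keratin, had 96 reads in H1299, 46 in A549 and 34593 in HBE, and the epithelial adhesion gene EPCAM had 61 reads in H1299, 541 in A549 and 18183 in HBE. The epithelial keratins went otherwise: KRT8 had 10101 reads in H1299, 153221 in A549 and 38373 in HBE, KRT18 had 30113, 150649 and 44285, and the sum of the epithelial list was highest in A549. VIM, a mesenchymal filament gene, had 43694 reads in H1299, 15327 in A549 and 124 in HBE. SFTPC, which marks alveolar type II cells, had 29 to 40 reads in all 3. Leukocytes also express immunoproteasome genes: their T cell marker CD3E had 28 reads in H1299, 41 in A549 and 37 in HBE, and the summed level of the 3 leukocyte markers PTPRC, CD3E and LYZ was 80.8 RPM (reads per 1000000 coding reads) in H1299, 75.9 in A549 and 28.1 in HBE, most of it LYZ.

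Proteasome genes were well covered by footprints. They took 162574 reads in H1299, 0.571% of the coding reads (interval 0.568% to 0.574%), 138927 reads or 0.444% (0.441% to 0.446%) in A549, and 129433 reads or 0.375% (0.373% to 0.377%) in HBE. The median member stood at the 91.5th percentile of coding genes by reads in H1299, the 93.1st in A549 and the 90.8th in HBE. At least 1000 reads fell on 36 members in H1299, 38 in A549 and 36 in HBE. Of the 46 genes, 23 had their highest level in H1299, 14 in A549 and 9 in HBE, against 44.2%, 39.0% and 16.7% of 18794 coding genes. The lowest level was in HBE for 24 of them (52.2%), against 60.6%. These counts depended on the scale, for the members and for all coding genes. With edgeR's TMM factors, 18 members were highest in H1299, 11 in A549 and 17 in HBE. The shares of the 18794 coding genes were then 34.7%, 31.5% and 33.8%. On that scale 13 members were lowest in HBE, against 36.0% of coding genes.

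Levels of different genes are compared here as footprint density, the RPM divided by the length of the coding sequence in kilobases. Densities of the members ran over a wide range, from 1.63 for PSMA8 to 621 for PSMD14 in H1299, from 1.70 for PSMA8 to 310 for PSMA7 in A549, and from 1.80 for PSMB11 to 377 for PSMA7 in HBE. PSMD14 is the deubiquitinase of the lid, PSMA7 an alpha ring subunit, and PSMA8 and PSMB11 are alternative core subunits known from testis and thymus.

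**Figure D1:**
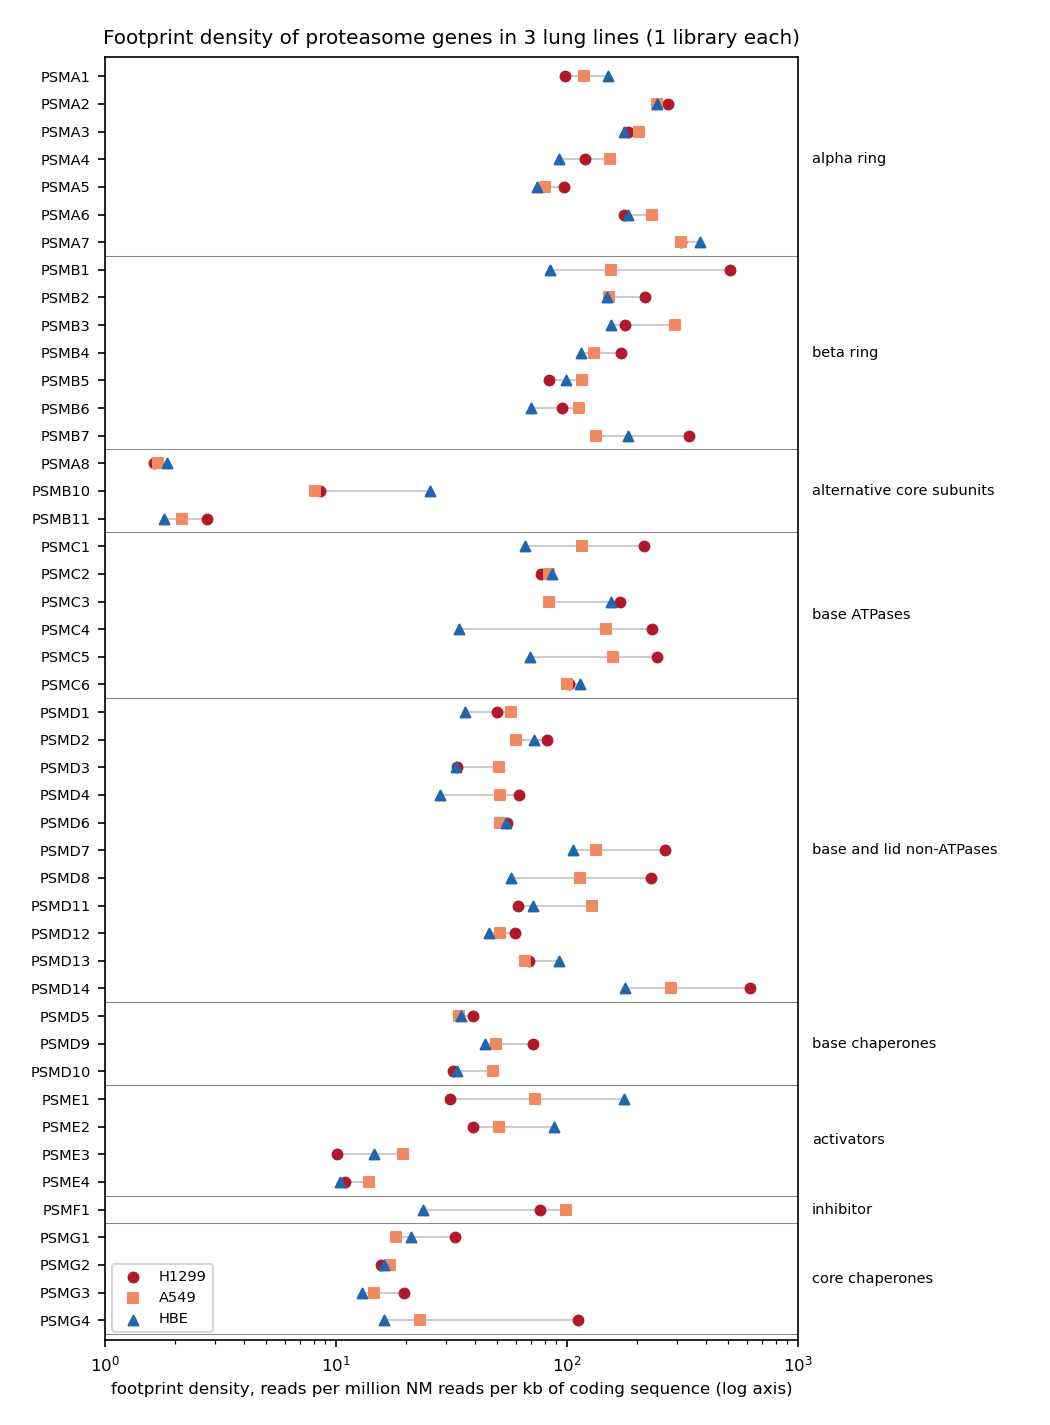
Footprint density of the 46 proteasome genes (log axis, RPM per kilobase of coding sequence), grouped by role, with 1 point for each of the libraries of H1299, A549 and HBE and a grey line over their range. The alternative subunits PSMA8 and PSMB11 lie below 3 in every line, and PSMD14, PSMB1 and PSMB7 are far to the right in H1299.

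Ratios between lines were taken on RPM, with 0.5 read added, and a gene was counted as higher or lower when its whole counting interval lay beyond 1.5 times. In H1299 against HBE, 11 of 46 proteasome genes (23.9%) were higher, against 19.0% of the 18570 coding genes with at least 20 reads, and 3 (6.52%) were lower, against 8.59%. Among genes with at least 1000 reads, a depth closer to that of the members, the background was 23.8% higher and 14.2% lower. The share of members that were higher in H1299 than in HBE was thus near that of well covered genes. In A549 against HBE, 13 members (28.3%) were higher, against 15.5% of coding genes and 19.3% of those with at least 1000 reads, and 4 (8.70%) were lower, against 6.63% and 11.2%. In H1299 against A549, 11 members (23.9%) were higher, against 9.91% and 15.7%, and 4 (8.70%) were lower, against 9.38% and 14.7%.

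The scale mattered most for A549 against HBE. The median log2 ratio of all coding genes was itself 0.38 in H1299 and 0.35 in A549 against HBE, with 0.02 for H1299 against A549. The members' medians were 0.19, 0.20 and 0.08 in these comparisons, which is -0.18, -0.15 and 0.07 relative to all genes. edgeR's TMM factors, in place of the total of coding reads, left the median of all genes at 0.02 in H1299 against HBE and 0.01 in A549 against HBE. With them, 10 members were higher in H1299 than in HBE, against 9.00% of coding genes, and 7 were lower, against 14.5%, so that the higher members were 58.8% of the calls in place of 78.6%. In A549 against HBE, 3 were higher, against 7.13% of coding genes, and 7 lower, against 12.4%, so that fewer calls were higher than lower, where 76.5% had been higher before. In H1299 against A549, 10 were higher, against 9.48%, and 4 lower, against 9.75%. PSMC4, PSMC5 and PSMF1 were the 3 members called higher in A549 than in HBE under all 4 scalings tried, and PSMB10, PSMC3, PSME1 and PSME2 the 4 called lower. Over all coding genes, 7.13% were called higher and 6.63% lower under all 4. In H1299 against HBE, 10 of the 11 higher calls, all but that of PSMB7, and the 3 lower calls were made under all 4, as they were for 9.00% and 8.59% of coding genes. In H1299 against A549 it was 10 of the 11 higher calls, all but that of PSMC5, and the 4 lower calls, with 9.48% and 8.85% of coding genes. Below, a gene is called higher or lower on the total of coding reads, and the scalings are named again only where a gene depends on them.

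Calls also depended on the fold asked for. With the interval wholly beyond 2 times, 10 members were higher and 3 lower in H1299 than in HBE, against 8.05% and 4.94% of coding genes, 3 were higher and 2 lower in A549 than in HBE, against 6.14% and 3.36%, and 4 were higher and 1 lower in H1299 than in A549, against 4.09% and 4.82%. With the interval wholly beyond 25% above or 20% below, 17 members were higher and 5 lower in H1299 than in HBE, against 32.9% and 12.5% of coding genes, and 8 were lower in H1299 than in A549, against 15.6%. Upper quartile factors gave 7 members higher in A549 than in HBE, against 9.67%.

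**Figure D2:**
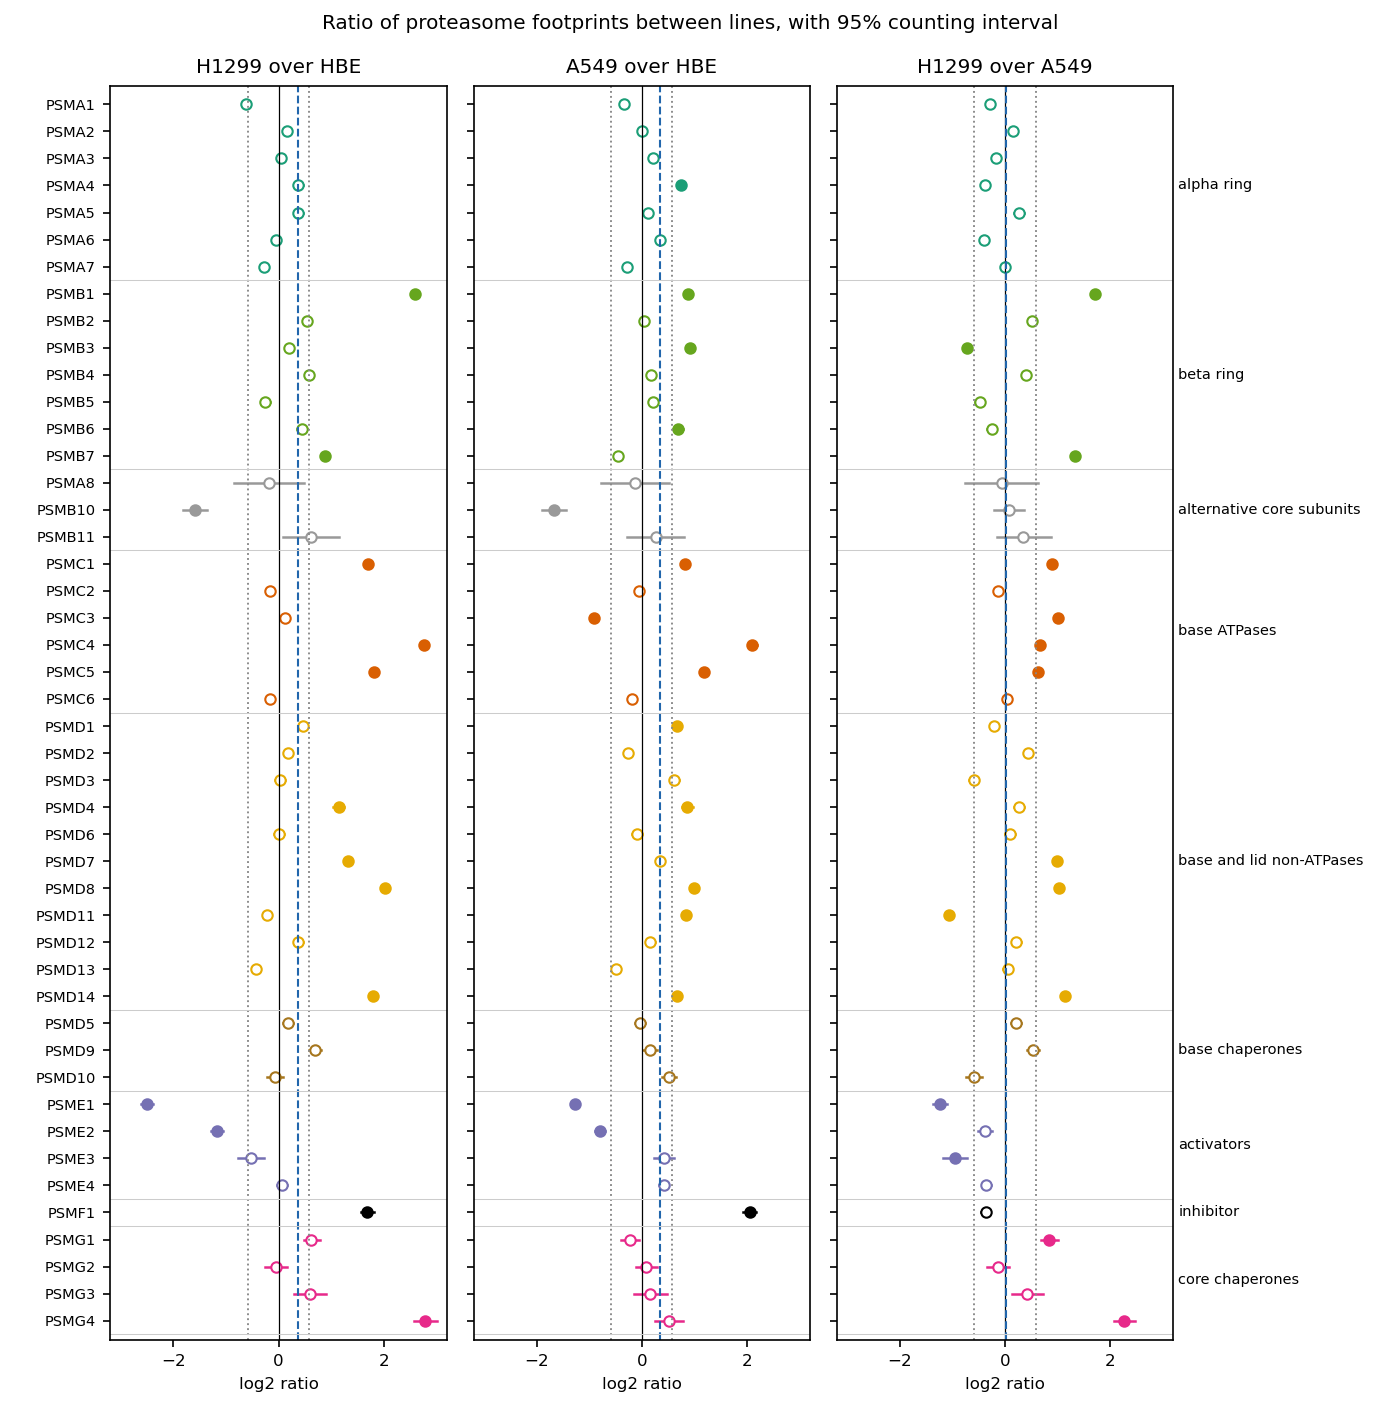
Log2 ratio of each proteasome gene in H1299 over HBE, A549 over HBE and H1299 over A549, with its 95% counting interval; filled points are called beyond 1.5 times (dotted lines), and the dashed line is the median of all coding genes. PSMB1, PSMC4, PSMD8, PSMD14 and PSMG4 stand to the right in H1299 over HBE, and PSMB10, PSME1 and PSME2 to the left in both comparisons with HBE.

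On the total of coding reads, the alpha ring had fewer calls than the beta ring. No gene of the 7 was called between H1299 and HBE, where 19.0% of coding genes were higher and 8.59% lower. None was called between H1299 and A549, where 9.91% were higher and 9.38% lower. In A549 against HBE 1 was called higher, where 15.5% of coding genes were. PSMA1 was called lower in H1299 than in HBE under each of the other scalings. Under TMM alone, PSMA7 was called lower in H1299 than in HBE, and PSMA1 lower in A549 than in HBE. The shares of coding genes lower under TMM were 14.5% and 12.4%. The gene called higher in A549, PSMA4, had 2672 reads in H1299, 3796 in A549 and 2493 in HBE. It was 1.68 times higher in A549 than in HBE (interval 1.60 to 1.77), and was not called under any of the other scalings. The median log2 ratio of the ring was 0.05 in H1299 and 0.11 in A549 against HBE, with -0.17 for H1299 against A549, against 0.38, 0.35 and 0.02 for all genes. PSMA7 was the densest member of the ring in every line, with 312 RPM per kilobase in H1299, 310 in A549 and 377 in HBE. PSMA5 was the least dense, with 96.7 in H1299, 80.4 in A549 and 74.5 in HBE. PSMA1 had 2204 reads in H1299, 2950 in A549 and 4123 in HBE. Its log2 ratios to HBE under TMM were -0.99 in H1299 and -0.68 in A549. The remaining alpha genes had 4005, 4950 and 4674 reads for PSMA3, 5520, 5434 and 5991 for PSMA2, and 3743, 5438 and 4713 for PSMA6 in H1299, A549 and HBE.

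In the beta ring, none of the 7 genes had its highest level in HBE on the total of coding reads, where 16.7% of coding genes had. Under TMM 1 had, PSMB5, where 33.8% of coding genes had. PSMB1, a structural beta subunit without a proteolytic site, had 10534 reads in H1299, 3517 in A549 and 2115 in HBE, which are 370, 112 and 61.3 RPM. It was 6.03 times higher in H1299 than in HBE (interval 5.76 to 6.33), 1.83 times higher in A549 than in HBE (1.74 to 1.94, not called under TMM) and 3.29 times higher in H1299 than in A549 (3.17 to 3.42). Its density of 509 in H1299 was the highest of the core particle there, whereas its 84.4 in HBE was below that of 5 other beta genes.

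The 3 beta subunits with proteolytic sites did not share an order of lines. PSMB7, which carries the trypsin-like site, had 8008 reads in H1299, 3497 in A549 and 5278 in HBE, 2.52 times higher in H1299 than in A549 (interval 2.42 to 2.62) and 1.84 times higher in H1299 than in HBE (1.78 to 1.90). Under TMM the call against HBE was absent. PSMB7 was called lower in A549 than in HBE under TMM and with upper quartile factors. PSMB5, with the chymotrypsin-like site that proteasome inhibitor drugs bind, had 1881 reads in H1299, 2877 in A549 and 2716 in HBE and was called in no pair. PSMB6, with the caspase-like site, had 1949 reads in H1299, 2548 in A549 and 1741 in HBE, 1.61 times higher in A549 than in HBE (1.52 to 1.72) on the total of coding reads alone. The 3 catalytic subunits had densities of 337 for PSMB7, 95.1 for PSMB6 and 83.4 for PSMB5 in H1299, of 134, 113 and 116 in A549, and of 183, 70.1 and 99.4 in HBE. They were thus within a narrow band in A549 and spread in H1299.

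PSMB3, another structural beta subunit, had its highest level in A549, with 3142 reads in H1299, 5669 in A549 and 3305 in HBE. It was 1.89 times higher in A549 than in HBE (interval 1.81 to 1.97), not called under TMM, and 1.64 times lower in H1299 than in A549. PSMB2 had 3742 reads in H1299, 2888 in A549 and 3105 in HBE, and PSMB4 had 3884, 3251 and 3158. Neither was called in any pair.

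Of the 3 alternative core subunits, PSMB10 had the most reads, and its level was highest in HBE. PSMB10 takes the place of PSMB7 in the immunoproteasome. It had 199 reads in H1299, 208 in A549 and 727 in HBE, or 6.99, 6.64 and 21.1 RPM. It was 3.01 times lower in H1299 than in HBE (interval 2.57 to 3.55) and 3.17 times lower in A549 than in HBE (2.71 to 3.72), while the cancer lines were not called against each other. Per coding length, its density was 2.52% of that of PSMB7 in H1299 (2.18% to 2.90%), 6.03% in A549 (5.22% to 6.94%) and 13.98% in HBE (12.9% to 15.1%), intervals that do not overlap. PSMB11, which replaces PSMB5 in the thymic cortex, had 71 reads in H1299, 61 in A549 and 56 in HBE. PSMA8, which replaces PSMA7 in the testis, had 35, 40 and 48. Their densities were 1.81% to 3.31% of PSMB5 and 0.489% to 0.547% of PSMA7, and at so few reads on genes of other tissues they are not read as translation of these subunits.

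The regulatory particle held more of the calls than the core particle. In H1299 against HBE, 7 of its 17 genes were higher and none lower, and 2 of 14 core genes were higher, where 19.0% of coding genes were higher and 8.59% lower. In A549 against HBE, 8 were higher and 1 lower, and 4 core genes were higher, beside 15.5% and 6.63% of coding genes. In H1299 against A549, 7 were higher and 1 lower, and 2 core genes were higher and 1 lower, beside 9.91% and 9.38%. Under TMM the A549 excess was lost: 2 regulatory particle genes, PSMC4 and PSMC5, were higher and 2 lower than in HBE, and no core gene was higher and 2 were lower. The shares of coding genes were then 7.13% higher and 12.4% lower. In H1299 against HBE, TMM gave 7 regulatory particle genes higher and 1 lower, and 1 core gene higher and 2 lower, beside 9.00% and 14.5% of coding genes.

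Among the 6 base ATPases, PSMC1, PSMC4 and PSMC5 were higher in both cancer lines than in HBE and higher in H1299 than in A549. For PSMC5 the call of H1299 against A549 was absent under TMM and without the 10 most read coding transcripts. PSMC4 had 8352 reads in H1299, 5790 in A549 and 1483 in HBE, or 293, 185 and 43.0 RPM. It was 6.82 times higher in H1299 than in HBE (interval 6.46 to 7.22) and 4.30 times higher in A549 than in HBE (4.06 to 4.56). PSMC5 had 8495 reads in H1299, 6021 in A549 and 2909 in HBE, 3.54 times higher in H1299 (3.39 to 3.69) and 2.28 times higher in A549 (2.18 to 2.39) than in HBE. PSMC1 had 8129 reads in H1299, 4827 in A549 and 3006 in HBE, 3.28 times higher in H1299 (3.14 to 3.42) and 1.77 times higher in A549 (1.69 to 1.85) than in HBE. The A549 call of PSMC1 was absent under TMM and with upper quartile factors. The other ATPases went differently, although all 6 occupy the same ring. PSMC3 was low in A549 alone, with 6360 reads in H1299, 3446 in A549 and 7095 in HBE, 1.87 times lower in A549 than in HBE (1.79 to 1.95) and 2.03 times higher in H1299 than in A549 (1.95 to 2.12). PSMC2 had 2849 reads in H1299, 3422 in A549 and 3886 in HBE, and PSMC6 had 3409, 3660 and 4615, with no call in any pair. The density of PSMC4 was 0.955 times that of PSMC5 in H1299 (0.926 to 0.984), 0.934 times in A549 (0.901 to 0.969) and 0.495 times in HBE (0.465 to 0.527). PSMC4 was the least dense ATPase in HBE, at 34.2 RPM per kilobase, and the second densest in H1299, at 233.

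Among the 11 other subunits of base and lid, 7 had their highest level in H1299, where 44.2% of coding genes had. Under TMM 5 had, where 34.7% of coding genes had. PSMD14, PSMD7 and PSMD8 were called higher in H1299 than in each of the other lines. PSMD14, the metalloprotease that cuts ubiquitin chains off substrates, had 16510 reads in H1299, 8258 in A549 and 5739 in HBE, or 580, 264 and 166 RPM, and was 3.49 times higher in H1299 than in HBE (interval 3.38 to 3.59), 1.59 times higher in A549 than in HBE (1.53 to 1.64) and 2.20 times higher in H1299 than in A549 (2.14 to 2.26). PSMD7, with which PSMD14 forms a dimer, had 7377 reads in H1299, 4094 in A549 and 3560 in HBE, 2.51 times higher in H1299 than in HBE (2.41 to 2.61) and not called in A549 against HBE. The density of PSMD14 was 2.34 times that of PSMD7 in H1299 (2.28 to 2.40), 2.11 times in A549 (2.03 to 2.19) and 1.68 times in HBE (1.62 to 1.76). PSMD8, a lid subunit, had 6924 reads in H1299, 3734 in A549 and 2069 in HBE, 4.05 times higher in H1299 (3.86 to 4.26) and 1.99 times higher in A549 (1.88 to 2.10) than in HBE.

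PSMD4, a ubiquitin receptor, had 2002 reads in H1299, 1820 in A549 and 1098 in HBE, 2.21 times higher in H1299 (interval 2.05 to 2.38) and 1.83 times higher in A549 (1.69 to 1.97) than in HBE. PSMD11, a lid subunit that also touches the core particle, was high in A549, with 2220 reads in H1299, 5114 in A549 and 3133 in HBE. It was 1.80 times higher in A549 than in HBE (1.72 to 1.88) and 2.10 times lower in H1299 than in A549 (1.99 to 2.20). PSMD1, a large scaffold subunit of the base, had 4054 reads in H1299, 5126 in A549 and 3557 in HBE, 1.59 times higher in A549 than in HBE (1.52 to 1.66). For A549 against HBE, the calls of PSMD1, PSMD4, PSMD8, PSMD11 and PSMD14 were absent under TMM. Those of PSMD1 and PSMD14 were made under none of the other scalings, and that of PSMD4 was also absent with upper quartile factors. The scaffold subunit PSMD2 had 6339 reads in H1299, 5146 in A549 and 6766 in HBE, and neither it nor the lid subunit PSMD13 was called. PSMD13 had 2205 reads in H1299, 2336 in A549 and 3614 in HBE. It was called lower in both cancer lines than in HBE under TMM, and in A549 also with upper quartile factors. PSMD3 was the least dense of the 11 genes in H1299 and A549, with 33.5 in H1299, 50.7 in A549 and 33.0 in HBE, and PSMD4 was the least dense in HBE, with 62.0, 51.3 and 28.1. PSMD6 had 1831 reads in H1299, 1883 in A549 and 2206 in HBE and PSMD12 had 2332, 2211 and 2178, with no call.

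Core and regulatory particle were compared as lists within the same libraries, a comparison that no scaling factor touches. The median log2 ratio of the 14 core genes was 0.29 in H1299 and 0.20 in A549 against HBE, with -0.08 for H1299 against A549. That of the 17 regulatory particle genes was 0.38, 0.62 and 0.27. Core minus regulatory particle was thus -0.09, -0.42 and -0.35, in comparisons that share libraries and so are not independent. On summed reads it was -0.51 in H1299 and -0.22 in A549 against HBE, and with the lists set by symbol, PSMA and PSMB against PSMC and PSMD, it was -0.25 in A549 against HBE, so the size and the order of the differences depend on the summary. Log2 ratios of single genes spread with an SD of 0.76 in the core and 0.98 in the regulatory particle in H1299 against HBE, and of 0.44 and 0.73 in A549 against HBE. The ATPases had a median log2 ratio of 0.92 in H1299 and 0.39 in A549 against HBE, with 0.65 for H1299 against A549. The beta ring had 0.55, 0.22 and 0.39.

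In level, the core particle was denser than the regulatory particle in every line. The median density of core genes was 178 RPM per kilobase in H1299, 153 in A549 and 150 in HBE, and that of regulatory particle genes was 81.6 in H1299, 84.0 in A549 and 69.0 in HBE. The ratio of these medians was 2.18 in H1299 (interval 2.06 to 2.31), 1.83 in A549 (1.71 to 1.95) and 2.17 in HBE (2.02 to 2.32). The size of this ratio rested on the length and the average used: it was 1.69 in H1299 and 1.74 in HBE with the length of the whole transcript, 1.32 in H1299 with means in place of medians, and 1.41 in HBE without the members that have a pseudogene. Though subunits of a particle are present in equal number, their densities spread widely. The densest core gene exceeded the least dense 6.11 times in H1299, 3.86 times in A549 and 5.39 times in HBE. For the regulatory particle the factor was 18.5 in H1299, 5.58 in A549 and 6.35 in HBE, and the coefficient of variation of its densities was 93.9%, 57.9% and 55.6%.

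**Figure D3:**
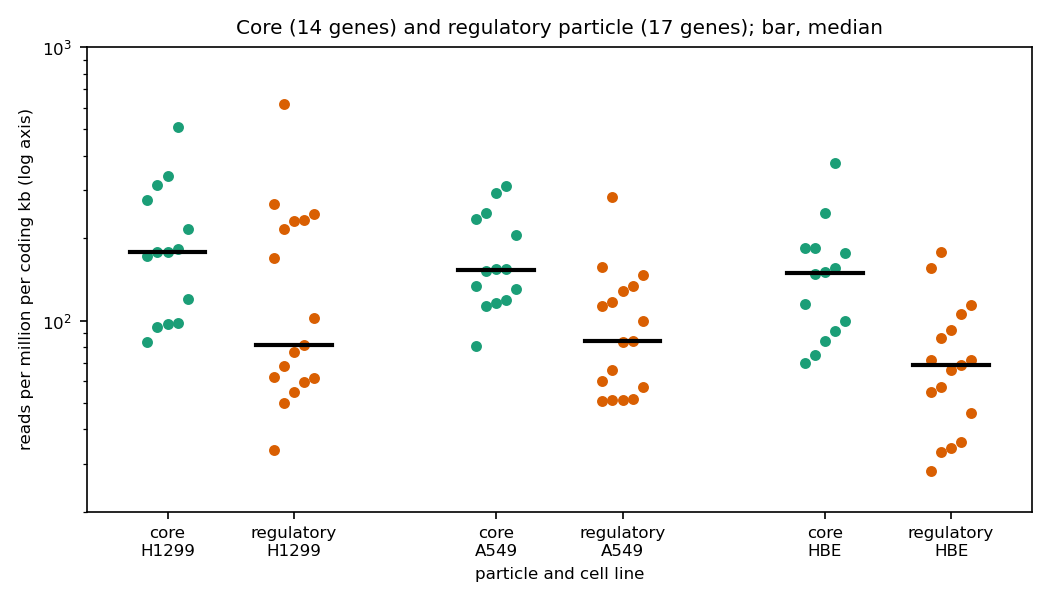
Footprint density (log axis) of the 14 core and 17 regulatory particle genes in the library of each line; a point is a gene and the bar is the median. The core median lies above the regulatory median in each line, and the regulatory genes of H1299 spread from 33.5 for PSMD3 to 621 for PSMD14.

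The activators PSME1 and PSME2 had their highest level in HBE, as had PSMB10. PSME1 had 663 reads in H1299, 1712 in A549 and 4556 in HBE, or 23.3, 54.7 and 132 RPM, and was 5.67 times lower in H1299 (interval 5.23 to 6.16) and 2.41 times lower in A549 (2.28 to 2.55) than in HBE, and 2.35 times lower in H1299 than in A549 (2.15 to 2.57). PSME2, with which PSME1 forms a mixed ring, had 802 reads in H1299, 1146 in A549 and 2190 in HBE, 2.25 times lower in H1299 (2.08 to 2.45) and 1.73 times lower in A549 (1.61 to 1.86) than in HBE. PSME1 differed more than its partner: the density of PSME1 was 0.794 times that of PSME2 in H1299 (0.715 to 0.881), 1.43 times in A549 (1.33 to 1.55) and 1.997 times in HBE (1.90 to 2.10). Of the leukocyte markers, LYZ had 64.2 RPM in H1299, 56.6 in A549 and 17.2 in HBE, PTPRC had 15.6, 17.95 and 9.85, and CD3E had 0.983, 1.31 and 1.07, and their part in the levels of PSMB10, PSME1 and PSME2 was not tested. In a bulk library, fewer cells that express a gene and fewer footprints per cell cannot be told apart.

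The other activators did not share this order. PSME4, which caps the core particle in the nucleus, had 1715 reads in H1299, 2407 in A549 and 1980 in HBE and was called in no pair. PSME3, a nuclear activator that forms rings of its own, had few reads on its coding rows, 221 in H1299, 469 in A549 and 385 in HBE, and was 1.93 times lower in H1299 than in A549 (interval 1.64 to 2.28). Under TMM it was also called lower in H1299 than in HBE. A non-coding row of the same gene held 1558, 2890 and 2210 reads. Coding and non-coding rows together gave 1779 reads in H1299, 3359 in A549 and 2595 in HBE, and a log2 ratio of -0.78 in H1299 against A549 in place of -0.95. The level of PSME3 given by the coding rows is therefore a low estimate if those reads belong to the coding sequence, which the counts alone do not show.

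PSMF1, described as an inhibitor of the core particle in vitro, was higher in both cancer lines. It had 1780 reads in H1299, 2522 in A549 and 668 in HBE, or 62.5, 80.6 and 19.4 RPM, 3.23 times higher in H1299 (interval 2.95 to 3.53) and 4.16 times higher in A549 (3.82 to 4.54) than in HBE. The density of PSMF1 was 7.04 times that of PSME4 in H1299 (6.58 to 7.52), 7.10 times in A549 (6.71 to 7.51) and 2.29 times in HBE (2.09 to 2.50). At least 99.2% of its reads were on the same transcript row in every line.

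**Figure D4:**
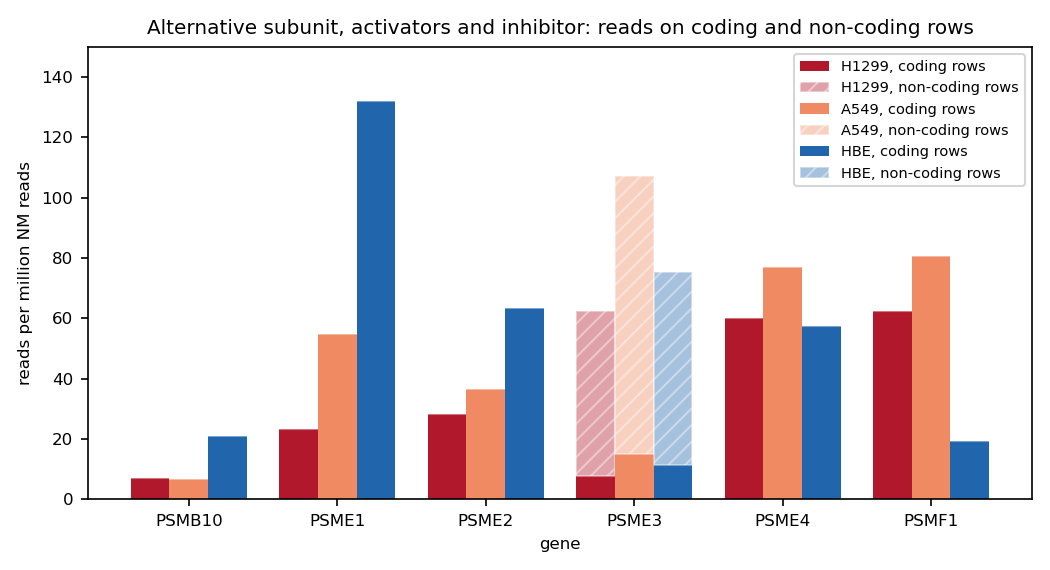
Level, in reads scaled to 1000000 coding reads, of the alternative subunit PSMB10, the activators PSME1 to PSME4 and the inhibitor PSMF1 in H1299, A549 and HBE (1 library each), with reads on coding rows solid and reads on non-coding rows of the same gene hatched above. PSMB10, PSME1 and PSME2 are tallest in HBE, PSMF1 is shortest there, and most PSME3 reads are on its non-coding row.

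Of the chaperones that build the core particle, PSMG4 stood apart in H1299. PSMG4 had 1187 reads in H1299, 270 in A549 and 208 in HBE, or 41.7, 8.62 and 6.03 RPM, 6.90 times higher in H1299 than in HBE (interval 5.96 to 8.05) and 4.83 times higher in H1299 than in A549 (4.23 to 5.54). PSMG3, the partner of PSMG4, had 206 reads in H1299, 168 in A549 and 165 in HBE and was not called. The density of PSMG4 was 5.72 times that of PSMG3 in H1299 (4.93 to 6.66), 1.59 times in A549 (1.31 to 1.94) and 1.2504 times in HBE (1.01 to 1.54). The other pair, PSMG1 and PSMG2, had 807 and 353 reads in H1299, 495 and 426 in A549, and 633 and 441 in HBE. PSMG1 was 1.79 times higher in H1299 than in A549 (1.60 to 2.01) and PSMG2 was not called.

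None of the base chaperones PSMD5, PSMD9 and PSMD10 was called in any pair. Of coding genes, 19.0% were higher and 8.59% lower in H1299 than in HBE. The shares were 15.5% and 6.63% in A549 against HBE, and 9.91% and 9.38% in H1299 against A549. PSMD9 came close to a call, at 1.62 times higher in H1299 than in HBE (interval 1.49 to 1.76). The densest of the base chaperones was PSMD9, with 71.3 RPM per kilobase in H1299, 49.2 in A549 and 44.03 in HBE. PSMD5 had 39.3, 34.1 and 34.8, and PSMD10 had 32.0, 48.0 and 33.5. These levels lie below the median of the regulatory particle in each line.

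Several features of the tables bear on single genes. Of the 46 genes, 28 had more than 1 coding row, and in all 28 the same row had the most reads in the 3 libraries. The counts do not show how reads in sequence shared by several rows were assigned, so the use of transcripts was not tested. PSMB5, for example, had 93.6% of its reads on its leading row in H1299, 94.9% in A549 and 91.8% in HBE. For PSMG4 the share of the leading row was 73.9% in H1299, 58.1% in A549 and 61.5% in HBE. GENCODE lists 44 pseudogenes for 17 of the genes, among them PSMB3, PSMB7, PSMC1, PSMD4, PSMD7, PSMD8, PSMD14 and PSME2 of those called, and none of the 44 has a row in the tables, so reads from a near-identical copy would be counted on the parent gene. PSMB1, PSMB10, PSMC4, PSMC5, PSME1, PSMF1 and PSMG4 have no pseudogene there.

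Other genes of the ubiquitin-proteasome system were set beside the members. Of 35 such genes, 13 were higher and 3 lower in H1299 than in HBE, 6 were higher and 3 lower in A549 than in HBE, and 5 were higher and 2 lower in H1299 than in A549. The shares of coding genes were 19.0% and 8.59%, 15.5% and 6.63%, and 9.91% and 9.38% in these comparisons. Under TMM, 4 were higher, RAD23B, VCP, UFD1L and UBB, and 6 lower in H1299 than in HBE, beside 9.00% and 14.5% of coding genes. In A549 against HBE, TMM gave 4 higher and 9 lower, beside 7.13% and 12.4%. The extremes were RAD23B, a shuttle that delivers ubiquitinated proteins, with a log2 ratio of 1.83, and MAFK, a small MAF protein, with -1.23 in H1299 against HBE. In A549 against HBE they were NSFL1C, a cofactor of VCP, with 1.49 and PAAF1, which binds the base ATPases, with -0.75. In H1299 against A549 they were RAD23B with 1.87 and the proteasome-binding ZFAND5 with -1.10. NFE2L1, the transcription factor that raises proteasome genes when the proteasome is impaired, had 121 RPM in H1299, 110 in A549 and 72.9 in HBE, 1.67 times higher in H1299 than in HBE (interval 1.58 to 1.75), a call made under none of the other scalings. Its relative NFE2L2, which drives the oxidative stress response, had 50.9 in H1299, 77.2 in A549 and 116 in HBE, 2.27 times lower in H1299 than in HBE (2.14 to 2.41). Under each of the other scalings NFE2L2 was also called lower in A549 than in HBE. POMP, which matures the core particle, had 106, 91.0 and 91.1 RPM in H1299, A549 and HBE, and the ubiquitin receptor ADRM1 had 121, 77.2 and 78.7, with neither called in any pair except ADRM1, higher in H1299 than in A549 with upper quartile factors. The small lid subunit SHFM1 had 346 in H1299, 153 in A549 and 241 in HBE, 2.26 times higher in H1299 than in A549 and 1.58 times lower in A549 than in HBE.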

How the data were processed

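Ribosome footprints of H1299, A549 and HBE cells (1 library per line) were analysed from the deposited transcript tables. According to the study's methods, rRNA was depleted from the footprints with a kit and with biotinylated probes, and a small RNA kit was used before HiSeq-2500 sequencing. Adapters were removed, reads were truncated at the first base below Phred 10, and FANSe2 mapped them to RefSeq RNA. The sources used here do not give the FANSe2 version. The submitters' processing notes name hg19. The deposited read counts were not normalized by the authors. The deposited RPKM values were computed by the authors from the count, the whole transcript length and all mapped reads, and served as an alternative for levels only.

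Counts on coding (NM) rows were summed per gene and symbol, and scaled to the sum of coding reads. Rows without a symbol (329 of 47239) were left out. The ratio of 2 libraries carries an exact conditional binomial 95% interval. Log2 ratios were taken after adding 0.5 read, for genes whose libraries together held 20 reads or more, and a gene is called when its interval lies beyond 1.5 times. No p-value is given, because single libraries allow no test between lines. Shares have exact Clopper-Pearson intervals. Density uses the coding length of the MANE Select transcript in GENCODE 44 lifted to hg19. That transcript was taken to encode the RefSeq protein whose length had been intended. For PSMD2 this length is 2727 bases, while the whole of its most read row is 2644 bases, so its density is approximate. The density of PSMD2 is the regulatory particle median in H1299. The interval script was tested on simulated data. Python 3.11.15, pandas 2.3.3, scipy 1.17.1 and, for scaling factors only, edgeR 4.0.16 were used.

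The members, the lists and the companion genes were chosen with earlier results of these data known. Values in every library are given for catalytic and alternative subunits, for the densest and least dense gene and the extreme ratios of each functional group, and for every gene called. Alternatives were other scalings, count minimums, folds, lengths and averages, non-coding rows added and the leading row alone. The sources do not say whether counting used strand, so reads from a gene and an antisense partner cannot be told apart. Of the planned leukocyte markers, 1 is not reported here.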

Additional observations from a re-analysis of the deposited data

Results flagged for a closer look

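Reads on non-coding rows that carry a proteasome gene's symbol, or that of its antisense partner, lie outside the coding rows compared above. The 6 rows that had more than 3 reads in every library are given, and the others had 6 reads or fewer in each. The largest were on the PSME3 row NR_049772, with 1558 reads in H1299, 2890 in A549 and 2210 in HBE. PSMG3-AS1 had 544, 456 and 526 reads on row NR_021487 and 143, 203 and 135 on row NR_027328 in H1299, A549 and HBE. PSMD5-AS1 (NR_024408) had 117 reads in H1299, 144 in A549 and 69 in HBE, and PSMD6-AS2 (NR_038286) had 28, 43 and 25. The PSMB3 row NR_104194 had 43, 27 and 25. Their part in the coding counts was not tested.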

How the results depend on the processing

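No paired analysis was possible because there is 1 library per line. Of 690 values of single members under the alternatives, 445 stayed within their counting interval. The 690 include a larger added count and added non-coding rows, under which values seldom moved. The 245 that moved came mostly from the other scalings. With TMM factors the members' median log2 ratio was -0.17 in H1299 against HBE and -0.14 in A549 against HBE, with upper quartile factors 0.033 and 0.0071, and without the 10 most read coding transcripts 0.026 and 0.045. TMM gave 7 lower calls in H1299 against HBE, and 3 higher and 7 lower in A549 against HBE, where upper quartile factors gave 7 higher. At 2 times, 3 were higher and 2 lower in A549 against HBE, and 4 higher and 1 lower in H1299 against A549. With the interval beyond 25% above or 20% below, 17 were higher and 5 lower in H1299 against HBE, and 8 lower in H1299 against A549. Core minus regulatory particle was -0.51 in H1299 against HBE and -0.22 in A549 against HBE on summed reads, and -0.25 in A549 against HBE with the lists set by symbol alone. The core to regulatory density ratio was 1.69 (H1299) and 1.74 (HBE) with transcript length, 1.69 and 1.63 with the deposited RPKM, 1.32 and 2.01 with means, and 2.32 and 1.88 by symbol. Without the members that have a pseudogene, an alternative chosen after seeing the data, it was 2.04 in A549 and 1.41 in HBE. The share of reads on the members was 0.840% in H1299, 0.658% in A549 and 0.620% in HBE without the 10 most read transcripts, 0.455%, 0.363% and 0.297% of all mapped reads, and 0.577%, 0.453% and 0.382% with non-coding rows added. The cause of these shifts was not tested. Depth limits PSMA8 and PSMB11 most, with 35 to 71 reads a library.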
